A study of Rattus norvegicus with 12 samples.

Results

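Lung mRNA of 10 genes of the hypoxia response was examined, namely Hif1a, Epas1, Vegfa, Slc2a1, Pdk1, Ldha, Egln3, Bnip3, Pgk1 and Ankrd37. All probe sets of the array whose platform gene symbol was 1 of these 10 were taken, which gave 15 probe sets. The array held 14217 genes with a single symbol. Each of 12 male Sprague-Dawley rats gave whole-lung RNA to 1 Affymetrix array, and each of 4 groups held 3 rats. CHF ketotifen and CHF placebo rats had congestive heart failure, produced by a clip on the supracoronary aorta placed in juveniles of 91 ± 9 g, and sham ketotifen and sham placebo rats had the operation without the clip. Ketotifen, which stabilizes mast cells and blocks the histamine receptor, was drunk with the water from day 1 at a daily dose of 1 mg per kg. Labels name the other arms placebo, while the design text has the heart failure rats without drug as untreated. All lungs were taken 9 weeks after surgery from age-matched rats, and the age itself is not given in the sources used here.

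Hypoxia-inducible factors are pairs of an oxygen-sensitive alpha subunit and the constant partner ARNT that switch on genes with a short recognition core in their DNA. In oxygen, prolyl hydroxylases mark the alpha subunit for destruction, so the activity of the pathway is set mainly by protein stability and less by the mRNA of the alpha subunits. Its best known targets turn the cell from oxidative metabolism to glycolysis, limit mitochondria and recruit vessels. In the lung, HIF-2 alpha and VEGF-A are abundant, HIF-2 alpha in endothelium and VEGF-A in alveolar epithelium.

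Values are the deposited log2 expression values. Testing required a log2 value of 4 or more in 3 or more arrays, which kept 16536 probe sets, 13 of the 15 member probe sets and 9 of the 10 genes. Egln3, the HIF prolyl hydroxylase that is itself a HIF target, lay between 2.26 and 2.76 on all 12 arrays, below that floor, and was not tested. Calls were made where the p of 1 limma fit of the 12 arrays, adjusted by Benjamini-Hochberg over all probe sets kept, was under 0.05. Where a gene had several probe sets, the brightest stands for it in counts, and errors of differences are standard errors of the fit. Values of different probe sets have no common scale, so levels are not compared between genes.

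The lung label was borne out by the alveolar type 2 marker Sftpc, at 15.40 to 15.93 on all arrays. The lungs held mixed cells, so fewer cells of a type and less RNA per cell cannot be told apart. In each of the 12 arrays 15809 to 16056 probe sets reached the floor. CHF placebo lung 1 stood on the first principal component (45.7% of the variance) at 38.9, beside the CHF ketotifen lungs at 52.8 to 73.7, while the other CHF placebo lungs and all sham lungs lay at -4.14 or lower. Whether the label of this lung is right was not tested, so each comparison with CHF placebo lungs carries that doubt. Cardiomyocyte markers (7 of 8 on the array) averaged 5.40 and 8.09 in sham ketotifen lungs 1 and 2 and 7.08 in sham placebo lung 3, and at most 3.02 in the other lungs. The difference between 3′ and 5′ beta-actin control probe sets, a sign of RNA quality, was 4.52 in sham ketotifen lung 2, 4.23 in sham placebo lung 2 and 3.90 in sham placebo lung 3, and 2.90 to 3.45 elsewhere.

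The members split into genes that were higher and genes that were lower in heart failure lungs with ketotifen than in sham lungs with ketotifen. Slc2a1, Ldha and Pgk1, which carry glucose into the cell and run glycolysis to lactate, rose by 1.53-fold to 1.83-fold, while Epas1, the HIF-2 alpha subunit, and Vegfa, the vessel growth factor, fell 1.92-fold and 2.90-fold. These 5 calls among 9 tested genes (6 of 13 probe sets, 3 genes higher and 2 lower) stood beside 13.0% called among all probe sets in the same comparison, 6.36% higher and 6.61% lower. The 3 lungs of each group did not overlap for 6 genes, 4 higher (19.2% of all probe sets) and 2 lower (20.8%), and 6 of 9 passed at an unadjusted p under 0.05 (31.1% of all). The median difference was 0.48 over the 9 genes and -0.03 over all probe sets. When any 1 of the 6 lungs compared was left out, 2 member probe sets stayed called, those of Epas1 and Vegfa. In all, 766 to 1121 probe sets were called in these fits, against 2145 with all lungs. Without sham ketotifen lungs 1 and 2 and sham placebo lung 3, which carried the cardiomyocyte signal, 0 members and 43 probe sets in all were called in a fit that rests on 1 sham ketotifen lung.

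**Figure D1:**
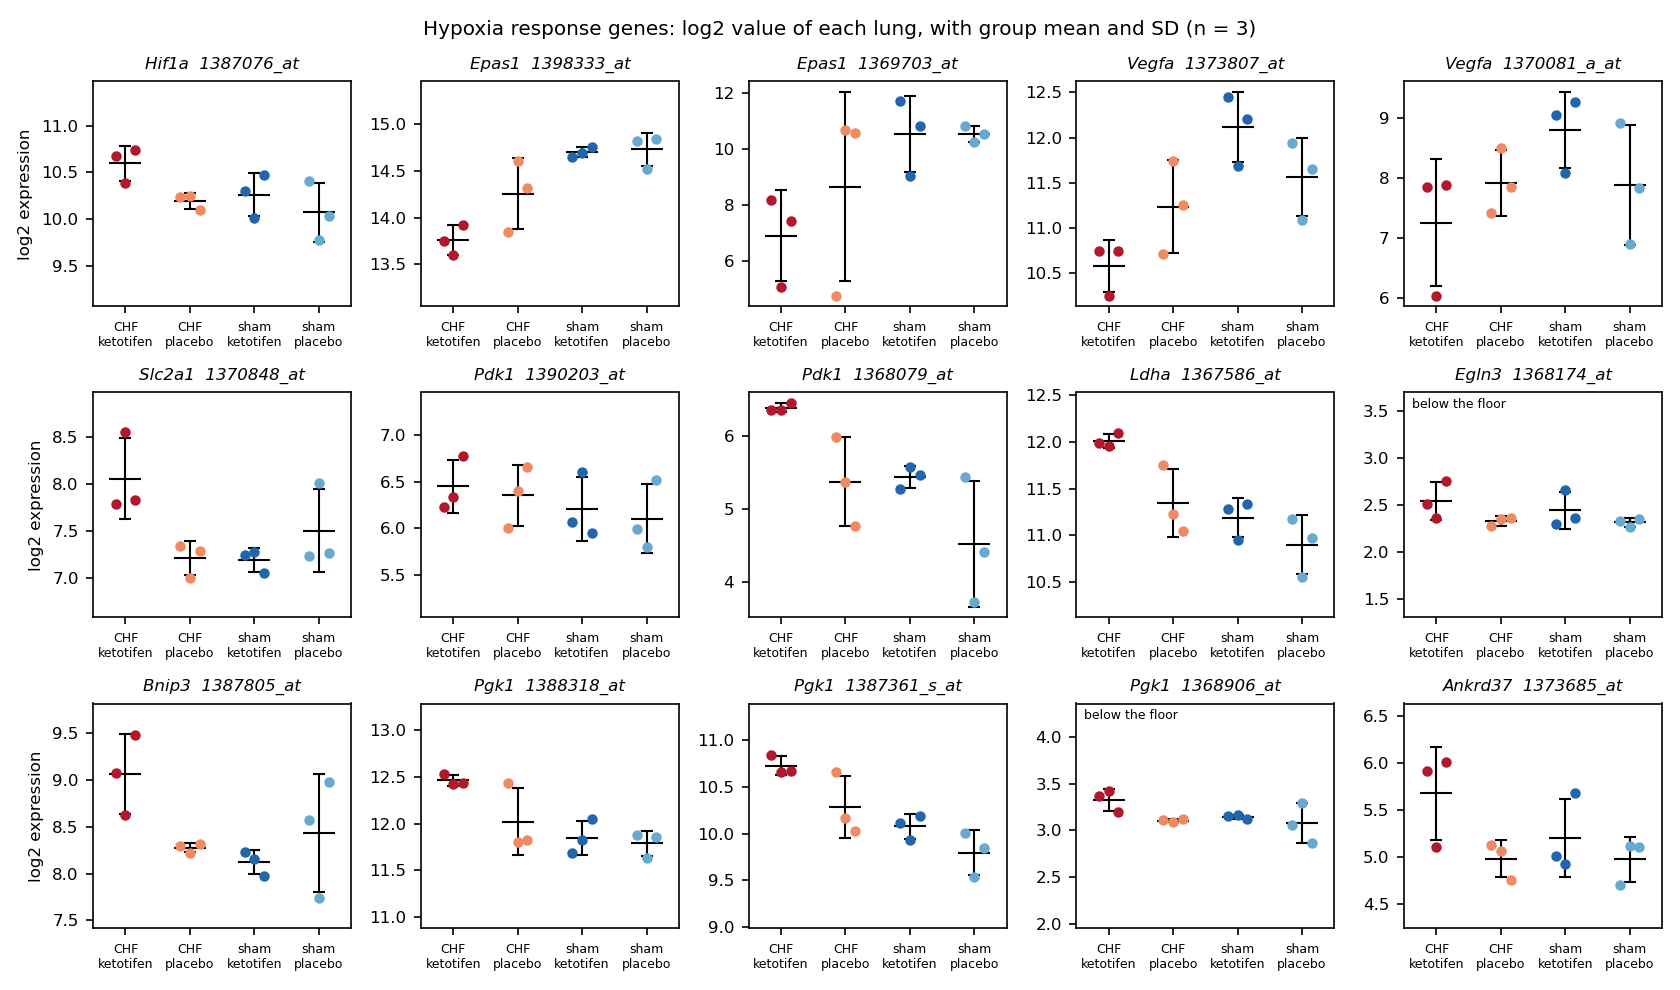
Log2 expression of the 15 member probe sets by lung, 1 panel each. Points are single lungs and black bars are the group mean and SD, with groups in the order CHF ketotifen, CHF placebo, sham ketotifen and sham placebo. The 3 CHF ketotifen lungs lie above all sham ketotifen lungs for Slc2a1, Ldha, Bnip3 and Pgk1 and below them for Epas1 and Vegfa, in every probe set above the floor.

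Among the regulators, Epas1 fell and Hif1a did not pass the test. Epas1 had log2 values of 13.76, 13.60 and 13.93 in CHF ketotifen lungs, 13.85, 14.60 and 14.31 in CHF placebo lungs, 14.65, 14.69 and 14.75 in sham ketotifen lungs, and 14.82, 14.52 and 14.84 in sham placebo lungs. All CHF ketotifen lungs were below all sham lungs, and CHF placebo lung 1 lay among the CHF ketotifen lungs. The mean was 13.76 ± 0.16 in CHF ketotifen lungs and 14.70 ± 0.05 in sham ketotifen lungs (SD, n = 3 each), a difference of -0.94 ± 0.17 (limma adjusted p 0.0100). Leaving out each of the 12 arrays in turn gave -1.02 to -0.86, with the call kept every time. Without the 3 lungs of cardiomyocyte signal the difference was -0.99 with an adjusted p of 0.213. In CHF placebo against sham placebo lungs it was -0.47 ± 0.17 (adjusted p 0.177), and between these 2 surgical differences the interaction was -0.46 ± 0.25 (adjusted p 0.524).

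A second Epas1 probe set, 1369703_at, varied far more than the first. It read 8.18, 5.08 and 7.43 in CHF ketotifen lungs, 4.76, 10.66 and 10.54 in CHF placebo lungs, 11.68, 9.03 and 10.81 in sham ketotifen lungs, and 10.82, 10.24 and 10.53 in sham placebo lungs. Its lowest values were those of CHF placebo lung 1 and CHF ketotifen lung 2, and the CHF ketotifen lungs were again below all sham lungs. The CHF ketotifen against sham ketotifen difference of -3.61 ± 1.39 was not called (adjusted p 0.107).

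Hif1a, the HIF-1 alpha subunit, had values of 10.67, 10.39 and 10.74 in CHF ketotifen lungs, 10.24, 10.24 and 10.10 in CHF placebo lungs, 10.30, 10.02 and 10.47 in sham ketotifen lungs, and 10.40, 9.77 and 10.04 in sham placebo lungs. The CHF ketotifen lungs lay above the CHF placebo lungs and overlapped both sham groups. Its difference was 0.33 ± 0.17 against sham ketotifen lungs (adjusted p 0.216) and 0.40 ± 0.17 against CHF placebo lungs (adjusted p 0.272). Because HIF proteins were not measured, these values speak of mRNA alone.

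Vegfa, the main growth factor of endothelium, was the member with the largest called difference. It read 10.75, 10.25 and 10.74 in CHF ketotifen lungs, 10.71, 11.74 and 11.26 in CHF placebo lungs, 12.45, 11.69 and 12.21 in sham ketotifen lungs, and 11.94, 11.09 and 11.65 in sham placebo lungs. All CHF ketotifen lungs were below all sham lungs, whereas CHF placebo and sham placebo lungs overlapped. The means were 10.58 ± 0.29 in CHF ketotifen lungs and 12.12 ± 0.39 in sham ketotifen lungs (SD, n = 3 each), and the difference of -1.54 ± 0.30 (adjusted p 0.0121) stayed between -1.75 and -1.37, and called, without any 1 array. Without the 3 lungs of cardiomyocyte signal it was -1.63 with an adjusted p of 0.211. A second Vegfa probe set, 1370081_a_at, had a difference of -1.55 ± 0.60 that was not called (adjusted p 0.106). There the CHF ketotifen values of 7.86, 6.04 and 7.89 were below sham ketotifen values of 9.06, 8.08 and 9.28. They overlapped the sham placebo values of 8.92, 6.91 and 7.85.

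The fall of Epas1 and Vegfa in CHF ketotifen lungs went with a lower mean of endothelial markers, though not of each marker. The endothelial list (Pecam1, Vwf, Cldn5 and Tie1, 4 of 5 genes on the array, all above the floor) averaged 9.84 to 10.35 in CHF ketotifen lungs, 10.19 to 10.96 in CHF placebo lungs, 11.05 to 11.26 in sham ketotifen lungs and 11.25 to 11.38 in sham placebo lungs. By this mean both heart failure groups lay below both sham groups, and CHF placebo lung 1 was the lowest of its group at 10.19. Pecam1 alone, at 10.57 to 10.90 in CHF ketotifen lungs, overlapped the sham ketotifen lungs at 10.65 to 11.09. Vwf, Cldn5 and Tie1 were lower there without overlap. In CHF placebo lungs Cldn5, at 12.44 to 12.93, overlapped both sham groups. Alveolar type 2 markers (5 of 5) averaged 13.98 to 14.14 in CHF ketotifen lungs, 13.69 to 14.06 in CHF placebo lungs, 13.61 to 14.10 in sham ketotifen lungs and 13.17 to 13.96 in sham placebo lungs. Alveolar type 1 markers (Ager, Aqp5 and Hopx, 3 of 4 on the array, all above the floor) averaged 11.90 to 12.07 in CHF ketotifen lungs, 12.07 to 12.70 in CHF placebo lungs, 12.30 to 12.95 in sham ketotifen lungs and 10.92 to 12.97 in sham placebo lungs. The type 1 list was thus lower in CHF ketotifen than in sham ketotifen lungs without overlap, and overlapped the sham placebo lungs. The part of cell makeup in the lower Epas1 and Vegfa values was not tested.

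Along the path of glucose, Slc2a1 encodes the glucose transporter GLUT1. It read 7.79, 8.55 and 7.83 in CHF ketotifen lungs, 7.33, 7.00 and 7.29 in CHF placebo lungs, 7.24, 7.27 and 7.05 in sham ketotifen lungs, and 7.23, 8.01 and 7.26 in sham placebo lungs. The CHF ketotifen lungs were above all CHF placebo and sham ketotifen lungs, and sham placebo lung 2, which also had a large actin difference, lay within their range. The difference between means of 8.06 ± 0.43 in CHF ketotifen lungs and 7.19 ± 0.12 in sham ketotifen lungs (SD, n = 3 each) was 0.87 ± 0.25 (adjusted p 0.0445), and the call held in 3 of the 12 fits that left out 1 array. Against CHF placebo lungs the difference was 0.85 ± 0.25 (adjusted p 0.120).

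Pgk1 encodes phosphoglycerate kinase, an ATP-yielding step of glycolysis. Its brightest probe set read 12.53, 12.43 and 12.43 in CHF ketotifen lungs, 12.43, 11.81 and 11.82 in CHF placebo lungs, 11.69, 11.82 and 12.05 in sham ketotifen lungs, and 11.88, 11.63 and 11.86 in sham placebo lungs. All CHF ketotifen lungs and CHF placebo lung 1 stood above every sham lung. The CHF ketotifen against sham ketotifen difference was 0.61 ± 0.17 (adjusted p 0.0378), and 0.65 ± 0.17 (adjusted p 0.0359) in the second probe set, 1387361_s_at. The suffix of that probe set marks probes shared by related transcripts, so its gene is less certain. The last probe set, 1368906_at, lay below the floor and was not tested.

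Ldha, the lactate dehydrogenase subunit that favours lactate formation, separated the CHF ketotifen lungs from all others. It read 11.98, 11.95 and 12.09 in CHF ketotifen lungs, 11.75, 11.23 and 11.05 in CHF placebo lungs, 11.28, 10.95 and 11.34 in sham ketotifen lungs, and 11.17, 10.56 and 10.97 in sham placebo lungs. The 3 CHF ketotifen lungs were the 3 highest of the 12, followed by CHF placebo lung 1. Means of 12.01 ± 0.07 in CHF ketotifen lungs and 11.19 ± 0.21 in sham ketotifen lungs (SD, n = 3 each) differed by 0.82 ± 0.20 (adjusted p 0.0260). The call was lost without any 1 of the 6 lungs compared, with adjusted p up to 0.0777, and kept in the other 6 fits.

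Pdk1, the kinase that closes the entry of pyruvate into the mitochondrial cycle, did not rise with the other metabolic members in its brightest probe set. That probe set had values of 5.80 to 6.77 over all 12 lungs with the 4 groups overlapping, and a CHF ketotifen against sham ketotifen difference of 0.24 ± 0.26 (adjusted p 0.560). The dimmer probe set, 1368079_at, read 6.34, 6.35 and 6.45 in CHF ketotifen lungs, 5.98, 5.37 and 4.76 in CHF placebo lungs, 5.27, 5.57 and 5.46 in sham ketotifen lungs, and 5.44, 3.72 and 4.40 in sham placebo lungs. All CHF ketotifen lungs were highest there, yet the difference of 0.95 ± 0.39 was not called (adjusted p 0.129), so the probe sets of this gene disagreed in size.

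Bnip3, a mitochondrial protein that directs the removal of mitochondria, read 9.08, 8.62 and 9.48 in CHF ketotifen lungs, 8.29, 8.23 and 8.31 in CHF placebo lungs, 8.23, 8.16 and 7.98 in sham ketotifen lungs, and 8.58, 7.74 and 8.98 in sham placebo lungs. The CHF ketotifen lungs stood above the CHF placebo and sham ketotifen lungs, while the sham placebo lungs overlapped all 3 other groups. The difference of 0.94 ± 0.29 against sham ketotifen lungs was just outside the threshold (adjusted p 0.0533). Ankrd37, an ankyrin repeat protein induced by HIF-1, had CHF ketotifen values of 5.91, 5.11 and 6.02 and sham ketotifen values of 5.01, 4.92 and 5.68, which overlapped (difference 0.48 ± 0.28, adjusted p 0.273).

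The rise of Ldha and Pgk1 in CHF ketotifen lungs went with higher macrophage markers. The macrophage list (Cd68, Adgre1, Itgax, Mrc1 and C1qa, 5 of 6 genes on the array, all above the floor) averaged 9.50 to 9.69 in CHF ketotifen lungs, 8.14 to 9.42 in CHF placebo lungs, 7.60 to 7.85 in sham ketotifen lungs and 6.13 to 7.73 in sham placebo lungs. By this mean every heart failure lung was above every sham lung, and CHF placebo lung 1, at 9.42, was the highest of its group. Taken singly, Adgre1, Itgax and Mrc1 in CHF placebo lungs overlapped sham lungs, while Cd68 and C1qa did not. Slc2a1 did not follow the list in placebo rats. It read 7.00 to 7.33 in CHF placebo lungs, and 8.01 in sham placebo lung 2, which had the lowest list mean at 6.13. Mean values of the red cell list (3 of 5 genes on the array, 2 above the floor) and mast cell list (6 of 6) were also higher in CHF ketotifen than in sham ketotifen lungs without overlap. So was the adipocyte list (4 of 4 on the array, 1 above the floor). Kit, of the mast cell list, went the other way, with means of 5.05 and 5.64, as did Slc4a1, a red cell gene below the floor. Club (2 of 3 on the array) and ciliated (5 of 7) lists were lower. The part of any of these cells in the higher Slc2a1, Ldha and Pgk1 values was not tested.

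**Figure D2:**
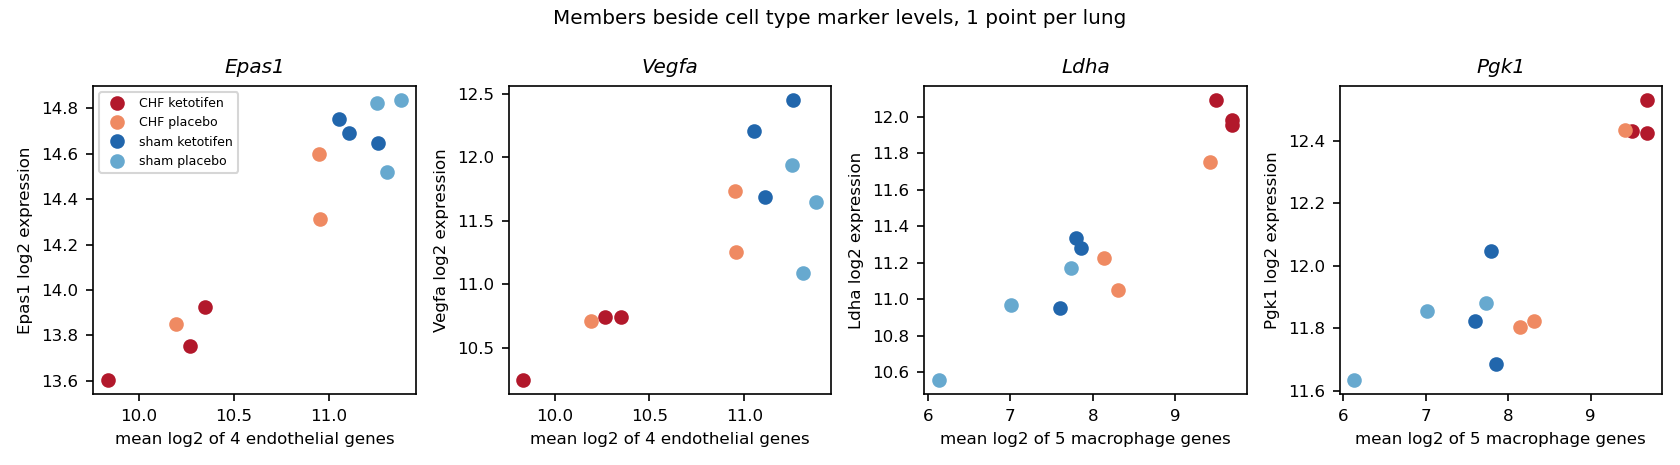
Epas1 and Vegfa set against endothelial markers, and Ldha and Pgk1 against macrophage markers, with the mean log2 value of the marker list on the horizontal axis and the log2 value of the member on the vertical axis. Each point is 1 lung, coloured by group in the order CHF ketotifen, CHF placebo, sham ketotifen and sham placebo. The CHF ketotifen lungs lie at 9.50 to 9.69 on the macrophage axis and at 9.84 to 10.35 on the endothelial axis, with CHF placebo lung 1 near them.

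Start regions of 4 of the 5 called members, 2 higher and 2 lower, are shown because HIF acts through its recognition core. The 250 bases before the annotated start were taken from RefSeq (build GRCr8), and ACGTG and GCGTG were searched on both strands. The palindrome CACGTG holds ACGTG on each strand and counts for both. Capitals mark the cores, and each sequence runs 5′ to 3′ along the strand of the gene. The table used gave windows for 9 members, 10 in all because Vegfa had a pair, and Pgk1 is named only.
Ldha (chr1:106507842-106508091, plus strand): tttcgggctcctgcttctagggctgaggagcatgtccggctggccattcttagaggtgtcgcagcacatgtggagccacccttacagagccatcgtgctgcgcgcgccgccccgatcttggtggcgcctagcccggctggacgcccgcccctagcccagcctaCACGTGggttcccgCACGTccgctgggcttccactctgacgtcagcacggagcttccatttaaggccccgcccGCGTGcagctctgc
Slc2a1 (chr5:138002272-138002521, plus strand): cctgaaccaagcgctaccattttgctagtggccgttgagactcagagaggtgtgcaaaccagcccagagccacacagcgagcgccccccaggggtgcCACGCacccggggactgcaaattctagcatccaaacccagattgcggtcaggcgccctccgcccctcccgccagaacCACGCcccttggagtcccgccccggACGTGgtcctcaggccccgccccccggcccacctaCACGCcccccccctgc
Epas1 (chr6:13624730-13624979, minus strand): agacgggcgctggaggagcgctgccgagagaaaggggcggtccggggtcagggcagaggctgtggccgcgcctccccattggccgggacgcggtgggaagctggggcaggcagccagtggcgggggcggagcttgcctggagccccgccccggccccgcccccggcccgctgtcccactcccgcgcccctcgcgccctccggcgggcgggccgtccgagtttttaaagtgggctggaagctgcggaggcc
Vegfa (chr9:22452604-22452853, plus strand): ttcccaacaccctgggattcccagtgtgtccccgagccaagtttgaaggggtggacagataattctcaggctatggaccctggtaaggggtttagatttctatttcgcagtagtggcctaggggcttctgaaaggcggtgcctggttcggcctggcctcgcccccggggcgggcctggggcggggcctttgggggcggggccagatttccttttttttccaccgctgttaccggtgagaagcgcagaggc

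Ldha held 4 cores, with ACGTG on the minus and plus strand at -87 and -86 and on the minus strand at -73, and GCGTG at -14, counted in bases from the start. Slc2a1 held 4, of which 1 was ACGTG at -51. Windows of Bnip3 and Ankrd37 held 4 cores each, Hif1a 3 and Pdk1 2, and those of Epas1, Vegfa and Egln3 held 0. Cores were thus present in 6 of 10 member windows, against 36.7% of 33469 promoters in the table and 63.0% of the 8454 with at least 60% GC. At least 4 cores stood in 4 of the 10 member windows, in 2.4% of all promoters and in 6.8% of those rich in GC. A match describes letters in this window only, and known HIF sites of a gene can lie outside it.

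Ketotifen against placebo within heart failure rats gave 0 called members, against 1.22% called among all probe sets. This comparison shares the CHF ketotifen lungs with the one above. At an unadjusted p under 0.05, 7 of the 9 genes passed, against 17.1% of all probe sets. Higher without overlap were 4 genes, Hif1a, Slc2a1, Ldha and Bnip3, and 0 were lower, while 9.86% of all probe sets were higher and 15.5% lower without overlap. Ldha had the difference 0.67 ± 0.20 (adjusted p 0.127), Bnip3 0.78 ± 0.29 (adjusted p 0.196), Ankrd37 0.70 ± 0.28 (adjusted p 0.236) and Pgk1 0.44 ± 0.17 (adjusted p 0.212). For Epas1 it was -0.49 ± 0.17 (adjusted p 0.185) and for Vegfa -0.66 ± 0.30 (adjusted p 0.293). Without CHF placebo lung 1, 1219 probe sets were called in all, against 201 with it, and 5 of them were of members: Epas1 at -0.70 and in its second probe set at -3.70, Ldha at 0.87, and Pgk1 at 0.65 and in its second probe set at 0.63.

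Heart failure alone, CHF placebo against sham placebo lungs, gave 0 called members, against 0.169% among all probe sets. At an unadjusted p under 0.05, 2 of 9 genes passed, Epas1 at -0.47 and Ldha at 0.44 ± 0.20 (adjusted p 0.248), against 20.1% of all probe sets. Slc2a1 had a difference of -0.29 ± 0.25 and Bnip3 one of -0.15 ± 0.29, opposite in sign to their differences with ketotifen. Leaving out 1 array gave -0.43 to -0.04 for Slc2a1 and -0.50 to 0.12 for Bnip3, whose sign was therefore not stable. Without CHF placebo lung 1 the count of members stayed 0. Ketotifen against placebo in sham lungs gave 0 called members, against 0.0847% among all probe sets, and 0 at an unadjusted p under 0.05, against 14.0%.

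The interaction asked whether the surgical difference was larger with ketotifen than with placebo. It called 0 members, against 0.369% of all probe sets, and 3 of 9 genes passed at an unadjusted p under 0.05, against 10.8%. They were Slc2a1 at 1.16 ± 0.35 (adjusted p 0.267), Bnip3 at 1.10 ± 0.41 (adjusted p 0.376) and Vegfa at -1.21 ± 0.42 (adjusted p 0.345). The surgical difference of the members in ketotifen rats is therefore not shown to differ from that in placebo rats.

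Averaged over both drug arms, heart failure against sham called 4 of 9 genes, against 21.0% of all probe sets, 2 higher (11.0% of all) and 2 lower (9.92% of all). Epas1 fell by 0.71 ± 0.12 (adjusted p 0.00662) and Vegfa fell by 0.93 ± 0.21 (adjusted p 0.0151), while Ldha rose by 0.63 ± 0.14 (adjusted p 0.0145) and Pgk1 by 0.42 ± 0.12 (adjusted p 0.0303). The dimmer probe set of Pdk1 was also called, at 0.90 ± 0.28 (adjusted p 0.0420), and its brightest was not, at 0.24 ± 0.18 (adjusted p 0.356). Second probe sets were not called for Epas1 (-2.74 ± 0.99, adjusted p 0.0695) or Vegfa (-0.76 ± 0.42, adjusted p 0.212). The brightest Epas1 and Vegfa probe sets, Ldha and the second Pgk1 probe set kept their calls without any 1 array. The brightest Pgk1 probe set did so in 5 of 12 such fits and the dimmer Pdk1 probe set in 2 of 12. This average includes the ketotifen comparison and is no separate evidence. Fits without the 3 arrays of largest actin difference, or without the 3 of cardiomyocyte signal, left 1 sham placebo or 1 sham ketotifen lung, respectively. The members lost their calls in both fits, as did most of all probe sets called.

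**Figure D3:**
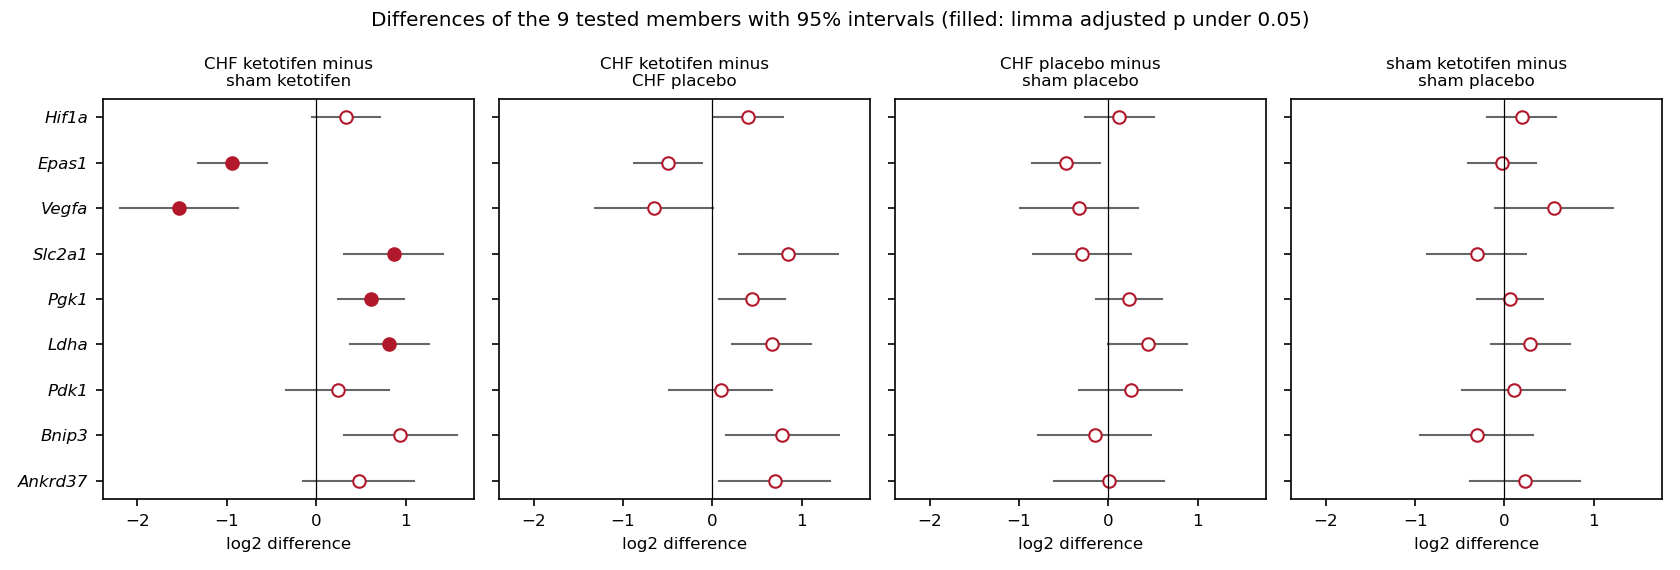
Log2 differences of the 9 tested members in the 4 comparisons of group pairs, 1 panel each, with 95% confidence intervals of the limma fit and filled points for called genes. Positive values mean higher in the group named first. Intervals for CHF ketotifen against sham ketotifen lie to the left of 0 for Epas1 and Vegfa. They lie to the right of 0 for Slc2a1, Ldha, Pgk1 and Bnip3. The intervals are not adjusted for the number of probe sets, and Bnip3 was not called.

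The wider pathway was read from 4 lists of 74 genes in all, 68 on the array and 58 tested. In CHF ketotifen against sham ketotifen lungs, 13 of the 58 were higher and 6 lower, beside the 13.0% called among all probe sets. Of 7 regulators of oxygen sensing 1 was higher and 0 lower, with a list median of 0.06. This was Bhlhe40, a transcriptional repressor induced by HIF, at 2.48 ± 0.41 (adjusted p 0.00617). Bhlhe40 read 9.14, 9.05 and 8.94 in CHF ketotifen lungs and 6.98, 5.88 and 6.83 in sham ketotifen lungs, with no overlap, and its call held without any 1 array.

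Glycolysis and lactate export held 18 tested genes, of which 4 were higher and 1 lower, with a median of 0.58 against -0.03 over all probe sets. Slc16a3, the lactate exporter MCT4, read 6.24, 6.45 and 6.43 in CHF ketotifen lungs, 4.90, 4.19 and 4.49 in CHF placebo lungs, 4.17, 4.06 and 4.04 in sham ketotifen lungs, and 4.01, 3.87 and 4.26 in sham placebo lungs. Only the CHF ketotifen lungs were more than 1 above the floor of 4, so the size of the change from a near-background level is uncertain. Its difference of 2.29 ± 0.20 (adjusted p 0.000166) against sham ketotifen lungs stood beside 1.85 ± 0.20 (adjusted p 0.00105) against CHF placebo lungs, and both calls held without any 1 array. Tpi1, triosephosphate isomerase, differed by 0.62 ± 0.16 (adjusted p 0.0281), Pfkfb4, which makes an activator of phosphofructokinase, by 1.12 ± 0.30 (adjusted p 0.0371), and Eno1, enolase, by 0.82 ± 0.23 (adjusted p 0.0410). Pfkm, the muscle phosphofructokinase, was lower at -0.87 ± 0.24 (adjusted p 0.0397), and another Pfkm probe set had 0.39 (adjusted p 0.454). Pfkm read 5.63, 5.06 and 5.45 in CHF ketotifen lungs and 6.12, 6.74 and 5.90 in sham ketotifen lungs, highest in a lung with cardiomyocyte markers. Of the 12 fits that left out 1 array, the call held in 7 for Tpi1, 6 for Pfkfb4, 5 for Pfkm and 4 for Eno1.

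Vascular and secreted targets moved both ways, 5 higher and 4 lower of 16 tested, with a median of -0.18. Plaur, the urokinase receptor, was higher by 4.11 ± 0.55 (adjusted p 0.00235), Hmox1, heme oxygenase 1, by 3.60 ± 0.58 (adjusted p 0.00579), and Pgf, placental growth factor, by 2.04 ± 0.39 (adjusted p 0.0116). The lower genes included the VEGF receptors Kdr at -1.75 ± 0.30 (adjusted p 0.00738) and Flt1 at -0.79 ± 0.17 (adjusted p 0.0173). Also lower was the angiopoietin receptor Tek at -1.44 ± 0.35 (adjusted p 0.0254). Other Flt1 probe sets were not called, at -1.66 (adjusted p 0.0729) and -0.39 (adjusted p 0.287). Kdr read 11.31, 10.52 and 11.27 in CHF ketotifen lungs and 12.84, 12.90 and 12.61 in sham ketotifen lungs, a gap without overlap. Plaur, Hmox1, Pgf and Kdr kept their calls without any 1 array, Flt1 in 9 of 12 such fits and Tek in 7. The VEGF and angiopoietin receptors sit mainly on endothelium, whose markers were lower on average, with Pecam1 overlapping, as given above. The part of cell makeup in the values of this list was not tested.

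Mitochondrial, stress and matrix targets gave 3 higher and 1 lower of 17 tested, with a median of 0.08. Ndrg1, a stress-responsive protein, was higher by 0.95 ± 0.14 (adjusted p 0.00452), Higd1a, a mitochondrial protein induced by hypoxia, by 1.18 ± 0.24 (adjusted p 0.0142), and Plod2, a collagen lysyl hydroxylase, by 1.54 ± 0.37 (adjusted p 0.0233). Cox4i2, the hypoxia-responsive isoform of a cytochrome oxidase subunit, was lower at -0.75 ± 0.21 (adjusted p 0.0405). Ndrg1 and Higd1a kept their calls without any 1 array, Plod2 in 7 of 12 such fits and Cox4i2 in 5. In the vascular and secreted list, Adm, adrenomedullin, was not called at -0.73 ± 0.34 (adjusted p 0.176), nor was Edn1, endothelin 1, at 0.09 ± 0.57 (adjusted p 0.929).

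**Figure D4:**
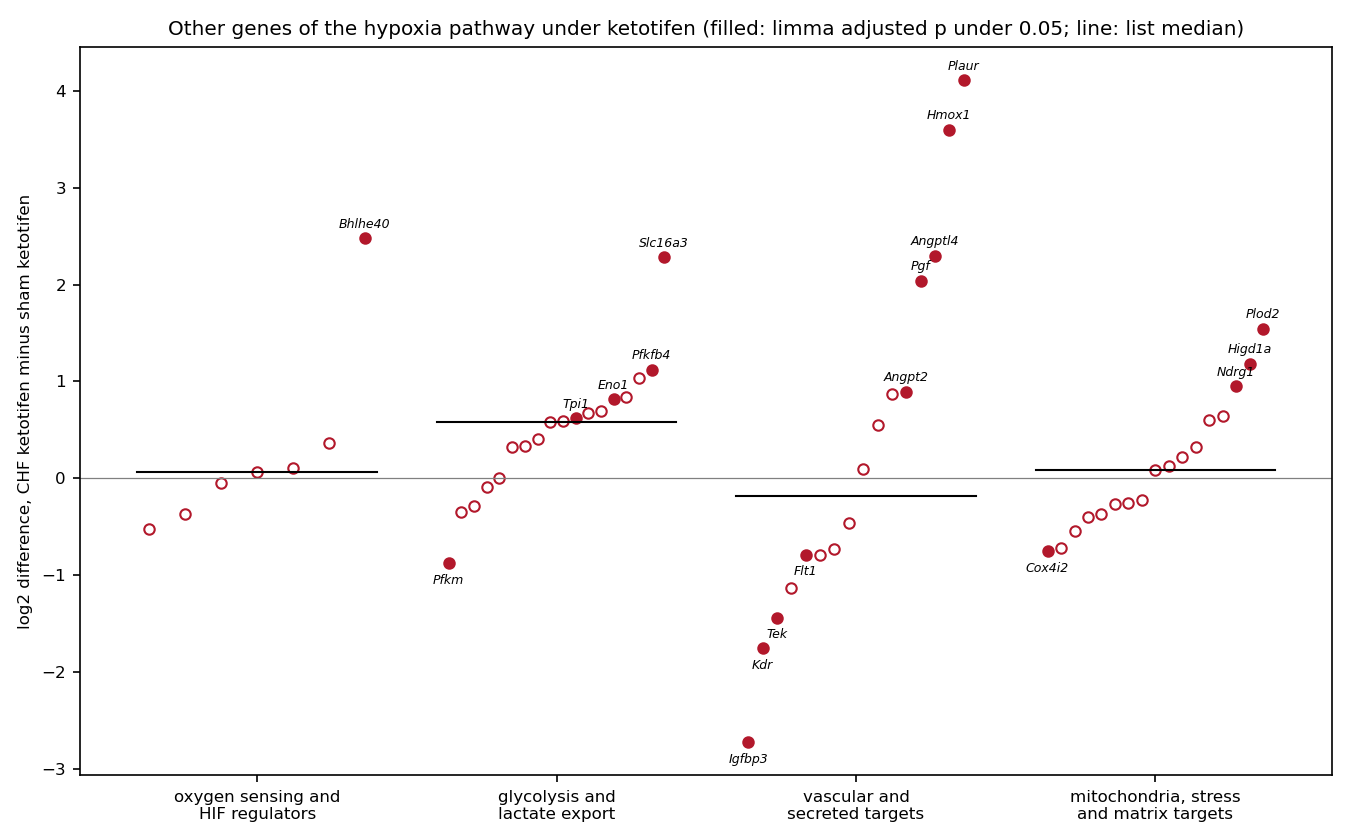
Log2 differences of the tested pathway genes in CHF ketotifen against sham ketotifen lungs, grouped by list, with 1 point per gene, called genes filled and labelled, and a line at each list's median. Slc16a3, at 2.29, and Plaur, at 4.11, stand at the upper end of their lists, and Kdr, at -1.75, lies among the lower vascular genes.

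Other comparisons called few pathway genes. In CHF ketotifen against CHF placebo lungs 2 of 58 were higher and 0 lower, beside 1.22% called among all probe sets, Slc16a3 as given and Plaur at 2.73 ± 0.55 (adjusted p 0.0399), whose call held in 4 of 12 fits that left out 1 array. Next in the remaining lists by p was Ndrg1 at 0.66 ± 0.14 (adjusted p 0.0576) and Bhlhe40 at 1.61 ± 0.41 (adjusted p 0.0868). CHF placebo against sham placebo lungs gave 0 of 58 (0.169% of all probe sets), with 15 at an unadjusted p under 0.05 (20.1% of all), and Cited2, a co-activator competitor of HIF, had the smallest adjusted p (0.67 ± 0.13, adjusted p 0.0636). Sham ketotifen against sham placebo lungs gave 0 of 58 (0.0847% of all), with 7 at an unadjusted p under 0.05 (14.0% of all). Pdk4, a pyruvate dehydrogenase kinase, had the smallest adjusted p there (-2.49 ± 0.43, adjusted p 0.0725). In the same comparisons, other probe sets had 0.36 (adjusted p 0.552) for Cited2 and -1.53 (adjusted p 0.195) for Pdk4.

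Genes whose pattern over the 12 arrays was most like a member are given as a description, by Pearson correlation over 9739 genes, with groups and cell makeup shared by all points. For Hif1a these were Adam10 (r = 0.956), Yaf2 (r = 0.941) and Kctd9 (r = 0.940). Vegfa was followed most closely by Cav1 (r = 0.961), Arhgef18 (r = 0.956) and Ctnnd1 (r = 0.955). Slc2a1 had Psmd13 (r = 0.912), N4bp2l2 (r = 0.893) and Paqr7 (r = 0.889).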

How the data were processed

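RNA of 12 whole rat lungs was measured on Affymetrix rat expression arrays. The deposited log2 values per probe set came from the authors' GCRMA run (R 2.5.0, as named by the submitters' processing notes), a method that models background from probe base content. No further settings were found in the sources. GCRMA compresses values close to background, so the size of a difference between dim probe sets is uncertain. Of 31099 probe sets, 57 controls were left out, and 20826 of the rest had 1 platform symbol, 436 several and 9780 none. No probe set with several symbols held a member.

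Groups came from the source names. One fit with limma 3.58.1 in R 4.3.3 covered all 12 arrays with 4 group means, eBayes with an intensity trend, 8 residual degrees of freedom, two-sided tests and Benjamini-Hochberg adjustment. The floor was a log2 value of 4 in 3 arrays. The number of arrays limits the precision. Other settings (filter, trend, robust eBayes, quantile normalization, array weights, replicate block, arrays left out) were also run, and the procedure was tested on simulated data. Members and pathway lists were chosen with earlier results of these data known. All members were named; from each list came the called genes, up to 6 per comparison by adjusted p, otherwise those of smallest p, not all of which are described. Adm and Edn1 were added after their values were seen.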

Additional observations from a re-analysis of the deposited data

Results flagged for a closer look

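Slc16a3, the lactate exporter MCT4 and a HIF target, differed between the drug arms in its response to heart failure. The interaction on the log2 scale was 1.80 ± 0.28 (limma adjusted p 0.0241), with a surgical difference of 2.29 ± 0.20 with ketotifen and 0.48 ± 0.20 with placebo. The 3 CHF ketotifen lungs were above all 9 other lungs, which lay between 3.87 and 4.90, close to background. The call held in 3 of 12 fits that left out 1 array, with values of 1.63 to 1.99 and adjusted p up to 0.0955. The macrophage list was also highest in the CHF ketotifen lungs, and its part in the result was not tested.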

How the results depend on the processing

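For CHF ketotifen against sham ketotifen lungs, 6 member probe sets were called, beside 2145 probe sets in all. With no filter on low values the member count was 2, beside 1156 in all. With CHF ketotifen arrays 1 and 3 averaged it was 2, beside 953 in all. The values of these 2 arrays differed by an SD of 0.258, against at least 0.397 in any other pair. Fits without the 3 arrays of largest actin difference left 1 sham placebo lung, and those without the 3 of cardiomyocyte signal 1 sham ketotifen lung. Both called fewer members and fewer probe sets in all. For the average surgery effect the member count was 6, beside 3467 in all. These calls were lost without either set of 3 arrays, as were most calls in all. Array quality weights (gene-by-gene method) called 1 member probe set in CHF placebo against sham placebo lungs, 11 in CHF ketotifen against CHF placebo lungs and 3 for the interaction, where the equal-weight fit called 0. Over all 16536 probe sets the weights called 3236, 4134 and 1132 in these comparisons, against 28, 201 and 61 with equal weights. Leaving out 1 array gave 2 to 7 for CHF ketotifen against sham ketotifen lungs, 0 to 5 for CHF ketotifen against CHF placebo lungs, 0 to 1 for CHF placebo against sham placebo and for sham ketotifen against sham placebo lungs, 0 throughout for the interaction and 4 to 7 for the average. The counts of 1 came without sham placebo lung 1 and were the dimmer Pdk1 probe set (1.31, adjusted p 0.0346, and 1.38, adjusted p 0.0452). Over all probe sets, leaving out 1 array called 766 to 2773 for CHF ketotifen against sham ketotifen lungs. It called 72 to 1219 for CHF ketotifen against CHF placebo lungs and 2021 to 4299 for the average. Fewer samples enter the fits that leave arrays out, and for the other settings the cause was not tested. No called result changed sign.

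With the replicate number as a block (replicate block), 7 member probe sets were called for CHF ketotifen against sham ketotifen lungs and 6 for the average surgery effect, with 0 in the others. The numbers did not pair the lungs: deviations of same-numbered lungs correlated between -0.35 and 0.26, and 3 of 12 arrays correlated best with their own number. Probe sets near background, such as Egln3, could not be read at this signal.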
